A study of Homo sapiens with 6 samples.

Results

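Osteopontin, the secreted glycoprotein encoded by SPP1, and 9 integrin subunit genes outside the hemidesmosome were followed in KYSE70 cells, a long-established line from a human squamous carcinoma of the esophagus. The genes were found by their names in a table of 48644 genes, and all 10 were present: SPP1, the alpha subunit genes ITGAV, ITGA2, ITGA3 and ITGA5, and the beta subunit genes ITGB1, ITGB3, ITGB5, ITGB6 and ITGB8. The members were chosen by gene name with their RPKM levels and contrasts in these same 6 libraries in view, and how each value weighed in that choice is not recorded. The fold changes and p-values of the 10 genes, in every contrast, are therefore given as a description and not as independent evidence.

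The cells carried a stable doxycycline-inducible hairpin vector and are grouped here as 2 lines by its target, SOX2 (shSOX2) or TP63 (shTP63). Both targets encode transcription factors of squamous epithelium. Each line gave 1 untreated library (day 0) and 2 libraries after doxycycline at 50 ng/ml for 4 days (day 4), 6 poly(A) RNA libraries in all. No line with a non-targeting hairpin was analysed here, so doxycycline, time in culture and the hairpin cannot be told apart within a line. The numbers in the sample titles, 2 for both day 0 libraries and 1 and 2 for the day 4 libraries, were taken as replicates but could number different hairpins. In that case the day 4 libraries numbered 1 have no day 0 library of their own, and their changes compare different hairpins. Nothing says that the libraries came from separate cultures. If they did not, the p-values reflect technical spread alone.

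Integrins are paired alpha and beta chains that span the plasma membrane, bind proteins of the extracellular matrix outside the cell, and connect through adaptors such as talin to the actin cytoskeleton inside it. The alpha V chain pairs with several beta chains, and these pairs recognise the RGD motif of ligands such as osteopontin, fibronectin and vitronectin, while the beta 1 chain also pairs with the collagen receptor chain alpha 2, the laminin receptor chain alpha 3 and the fibronectin receptor chain alpha 5. Osteopontin was first known from bone matrix, is made by many epithelia and carcinomas, and also binds CD44.

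The RefSeq promoter table (GRCh38.p14) held entries for 8 of the 10 genes. The sequence upstream of SPP1 is shown because SPP1 was the member with the widest range over the libraries, and the hairpins target transcription factors. It covers the 250 bases before the start site on the plus strand, chr4:87975464-87975713, with capitals at matches to ACAAT, the core letters bound by SOX factors, and to AACCACA, the RUNX motif, each searched on both strands.

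SPP1: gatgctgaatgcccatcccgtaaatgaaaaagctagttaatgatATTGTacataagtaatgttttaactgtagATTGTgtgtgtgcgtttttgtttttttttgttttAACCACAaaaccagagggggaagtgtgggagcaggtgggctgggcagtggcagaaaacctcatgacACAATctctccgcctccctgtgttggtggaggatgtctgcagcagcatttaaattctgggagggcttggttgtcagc

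ACAAT matched at 3 places, starting 206, 177 and 77 bases before the start site, and AACCACA matched once, 143 bases before it. No matches overlapped. Of the 35116 promoters in the table, 24.6% held ACAAT at least once in the same 250 bases, and 3.65% held AACCACA. The AP-1 letters TGANTCA, held by 6.57% of promoters, and the p53 family half-site, held by 5.57%, were not among these bases. Of the integrin promoters, 1 held any of these letters: that of ITGB6 had 1 ACAAT. A match describes letters only, and factor binding was not measured.

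Values were read as log2(RPKM + 1), where RPKM is a read number scaled to gene length and to the reads of the library. They were also read as quantile-normalized, that is, set to a distribution shared by the libraries. RPKM figures given here are these normalized values taken back from the log scale, and not the RPKM measured in each library. Base 2 was assumed, and because the scale adds 1, changes of low genes come out too small. Such values can be compared between genes, but their read depth is unknown. The uninduced shTP63 library stood apart, with 16167 genes above 0 against 21530 to 23509 in the others, and as the only control of its line it enters every change after induction of the TP63 hairpin. The hairpin targets were lower after induction in the line that targets them: SOX2 was at 6.25 before and at 4.67 and 5.65 after, and TP63 at 3.99 before and at 2.11 and 2.26 after. Neither log2 change passed, at -1.10 ± 0.45 for SOX2 and -1.81 ± 0.32 for TP63 (limma SE, limma adjusted p = 0.469 and 0.131). SOX2 in induced shSOX2 replicate 2 was nevertheless above the 5.41 and 5.55 of the induced shTP63 libraries. All 10 squamous epithelial markers averaged an RPKM of at least 1, with KRT5 at 8.39 to 11.01. KRT14 and KRT4 were low, at 0.66 to 2.70 and at 0.62 to 3.36. None of the 5 leukocyte, 3 endothelial and 5 osteoblast markers in the table reached that mean.

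A filter at a mean RPKM of 1 or more left 10536 genes for testing, with 8 of the 10 members among them. Both members that did not pass are beta chains that pair with alpha V. ITGB6, the epithelial alpha V partner that activates latent TGF-beta, was listed at 0 in all 6 libraries. ITGB3, the partner best known from platelets, osteoclasts and endothelium, was at 0 in 3 libraries and at 0.01 to 0.02 in the others. With the depth unknown, no upper limit can be put on either. A low listing was also seen for ZYX, the gene of the focal adhesion protein zyxin, which lay at 0.04 to 0.67. Among the widely expressed genes checked with it ZYX was the exception, the next lowest being TBP at 1.73 to 2.64. The adhesion genes TLN1, VCL and ILK lay at 4.13 to 5.04, 4.00 to 5.20 and 2.35 to 2.91.

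SPP1 was the most abundant of the 10 in 4 libraries, those of the shSOX2 line and the uninduced shTP63 library. It was at 6.97 in the uninduced shSOX2 library, at 7.62 and 7.95 in the induced shSOX2 replicates 1 and 2, and at 6.62 in uninduced shTP63 cells. Induced shTP63 replicates 1 and 2 had 5.03 and 3.73. Both induced shSOX2 libraries were thus the highest of the 6 and both induced shTP63 libraries the lowest. On the linear scale these normalized levels are an RPKM of 124.0, 195.8 and 246.3 in the shSOX2 line and of 97.5, 31.6 and 12.3 in the shTP63 line. Among all genes of the table, SPP1 ranked 134, 74 and 53 from the top in the shSOX2 libraries and 182, 709 and 2062 in the shTP63 libraries. In a bulk sample, fewer cells with SPP1 RNA and less SPP1 RNA per cell cannot be told apart.

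**Figure D1:**
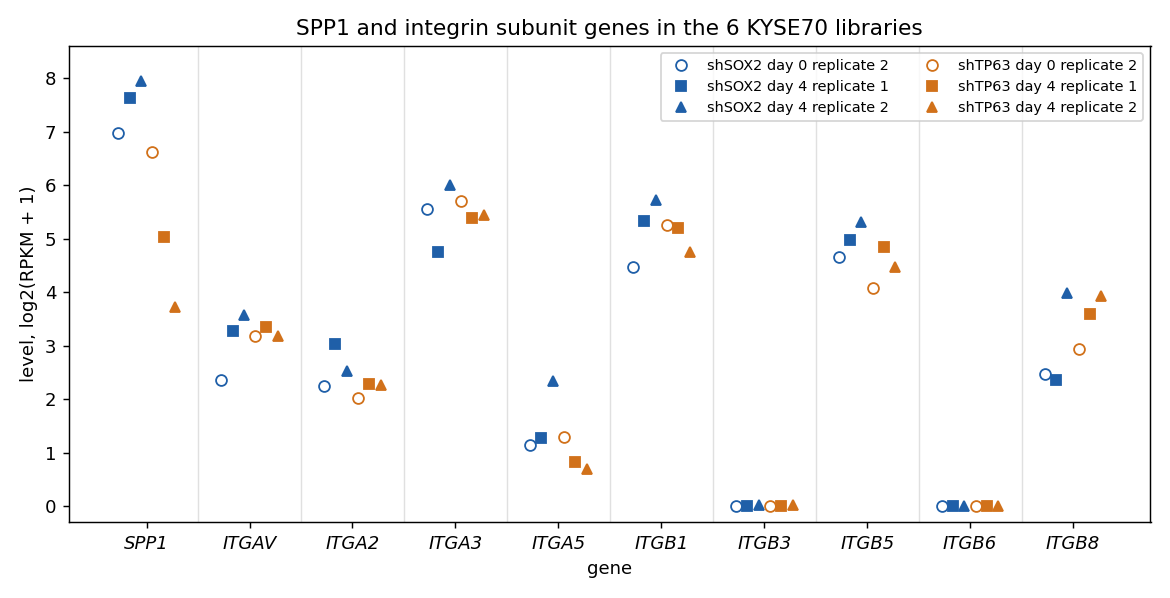
Level of each of the 10 genes as log2(RPKM + 1) on the vertical axis, 1 point per library, with open circles for day 0, squares for day 4 replicate 1 and triangles for day 4 replicate 2, blue for shSOX2 and orange for shTP63. SPP1 spans 3.73 to 7.95, with both induced shTP63 libraries below all others, while ITGB3 and ITGB6 lie at or near 0 throughout.

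The alpha chains differed widely in level. ITGA3 was the highest of the 4, at 5.55, 4.74 and 6.00 in the shSOX2 line (day 0, then day 4 replicates 1 and 2) and at 5.71, 5.39 and 5.45 in the shTP63 line. Its induced shSOX2 libraries lay on either side of all the others, so the gap between those replicates was wider than any shift with induction. It made up 59.8% to 83.5% of the summed linear RPKM of the 4 alpha genes.

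ITGAV was at 2.36 in the uninduced shSOX2 library, at 3.27 and 3.58 in the induced ones, and at 3.17, 3.35 and 3.19 in the shTP63 line. The uninduced shSOX2 library was the low one, and the other 5 lay between 3.17 and 3.58. ITGA2 was at 2.24, 3.04 and 2.53 in the shSOX2 line and at 2.02, 2.28 and 2.27 in the shTP63 line. ITGA5, the least abundant tested member, was at 1.14, 1.27 and 2.34 in the shSOX2 line and at 1.29, 0.83 and 0.70 in the shTP63 line. Its one high value was induced shSOX2 replicate 2, and both induced shTP63 libraries were its lowest.

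Among the beta chains ITGB1, the common partner, and ITGB5, an alpha V partner that binds vitronectin, were the abundant ones. ITGB1 was at 4.48, 5.33 and 5.72 in the shSOX2 line and at 5.26, 5.21 and 4.74 in the shTP63 line. As for ITGAV, the uninduced shSOX2 library was its lowest. ITGB5 was at 4.65, 4.97 and 5.32 in the shSOX2 line and at 4.07, 4.84 and 4.47 in the shTP63 line. ITGB8, an alpha V partner that like beta 6 activates latent TGF-beta, was at 2.47, 2.36 and 3.98 in the shSOX2 line and at 2.94, 3.58 and 3.93 in the shTP63 line. Induced shSOX2 replicate 1 was its lowest library and replicate 2 its highest.

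The order of levels over the 8 tested genes placed SPP1 first in 4 libraries, followed by ITGA3 in 3 of them and by ITGB1 in induced shSOX2 replicate 1. In the induced shTP63 libraries ITGA3 was first, SPP1 was the third in replicate 1 and the fifth in replicate 2, below ITGB1, ITGB5 and ITGB8 there. ITGB1 and ITGB5 overlapped in range, at 4.48 to 5.72 and 4.07 to 5.32, as did ITGAV, at 2.36 to 3.58, with ITGB8, at 2.36 to 3.98, and with ITGA2, at 2.02 to 3.04. ITGA5 was the lowest tested gene in every library. An antisense gene, ITGB5-AS1, is listed in the table, and since no strand-specific step is stated its reads and those of ITGB5 cannot be told apart.

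After induction of the SOX2 hairpin, 6 of the 8 tested members were higher than day 0 in both induced libraries: SPP1, ITGAV, ITGA2, ITGA5, ITGB1 and ITGB5. Over all tested genes 33.3% were. The mean log2 changes were 1.06 ± 0.33 for ITGAV and 1.05 ± 0.38 for ITGB1 (limma SE, day 4 n = 2, day 0 n = 1), and 0.82 ± 0.53 for SPP1, 0.70 ± 0.61 for ITGB8, 0.66 ± 0.43 for ITGA5, 0.54 ± 0.34 for ITGA2 and 0.49 ± 0.37 for ITGB5. ITGA3 had a change of -0.18 ± 0.52, with its replicates on opposite sides of day 0. The median of the 8 was 0.68, beside -0.05 for all tested genes.

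No member passed in the shSOX2 line: limma called 0 of the 8 and 0 of 10536 genes (0%), and at an unadjusted p under 0.05 stood 2 members, ITGAV and ITGB1, with 10.4% of all tested genes. Their limma adjusted p-values were 0.414 and 0.439, and that of SPP1 was 0.606. By size, 0 of the 8 were at least 2-fold apart from day 0 in both induced libraries, against 3.46% of all tested genes. ITGAV, with log2 changes of 0.91 and 1.22, came nearest. Without induced shSOX2 replicate 1, 4 members were past 2-fold, namely ITGAV, ITGA5, ITGB1 and ITGB8, and without replicate 2 none was.

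The uninduced shTP63 library was above the uninduced shSOX2 library by 0.82 for ITGAV and by 0.785 for ITGB1, so the size of both changes depends on 1 library. With the uninduced shTP63 library as the control, a setting chosen after the data were seen, the change of ITGAV was 0.25 and that of ITGB1 was 0.26. Against that library 5 of the 8 members, SPP1, ITGAV, ITGA2, ITGB1 and ITGB5, were higher in both induced shSOX2 libraries, beside 36.7% of all tested genes. SPP1 had a change of 1.16 there.

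After induction of the TP63 hairpin, SPP1 had a log2 change of -2.24 ± 0.53, made of -1.60 in replicate 1 and -2.89 in replicate 2 (limma SE, day 4 n = 2, day 0 n = 1, limma adjusted p = 0.156). The change ranked 29 from the bottom among the 10536 tested genes, beside a log2 change of -1.81 for TP63 itself. SPP1 was the 1 member of 8 that was at least 2-fold lower in both induced libraries, a size reached on the lower side by 2.82% of all tested genes. Limma called 0 of the 8 members and 2 of all tested genes (0.019%). At an unadjusted p under 0.05 stood 1 member, SPP1, and 14.6% of all tested genes. The log2 change of SPP1 was -2.89 without induced shTP63 replicate 1 and -1.60 without replicate 2. Those fits leave 1 library in that group and take the spread from the shSOX2 pair, so their p-values are not given. The limma adjusted p of SPP1 was 0.028 against the pair of day 0 libraries and 0.336 with no filter on low values. Over 14 alternatives its change stayed between -2.89 and -1.60.

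The integrin genes had smaller changes than SPP1 in the shTP63 line, in both directions. ITGB8 had a log2 change of 0.82 ± 0.61, with 0.64 in replicate 1 and 0.99 in replicate 2, just short of 2-fold. ITGB5 had one of 0.59 ± 0.37, ITGA2 one of 0.26 ± 0.34 and ITGAV one of 0.09 ± 0.33. ITGA5 had a change of -0.53 ± 0.43, and ITGA3 and ITGB1 had one of -0.29 each, with standard errors of 0.52 and 0.38. In both induced libraries 4 members, ITGAV, ITGA2, ITGB5 and ITGB8, were above day 0, beside 37.9% of all tested genes, and the other 4 were below it, beside 38.5%. Against the uninduced shSOX2 library the change of ITGB1 was 0.50, so its sign depends on the control.

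**Figure D2:**
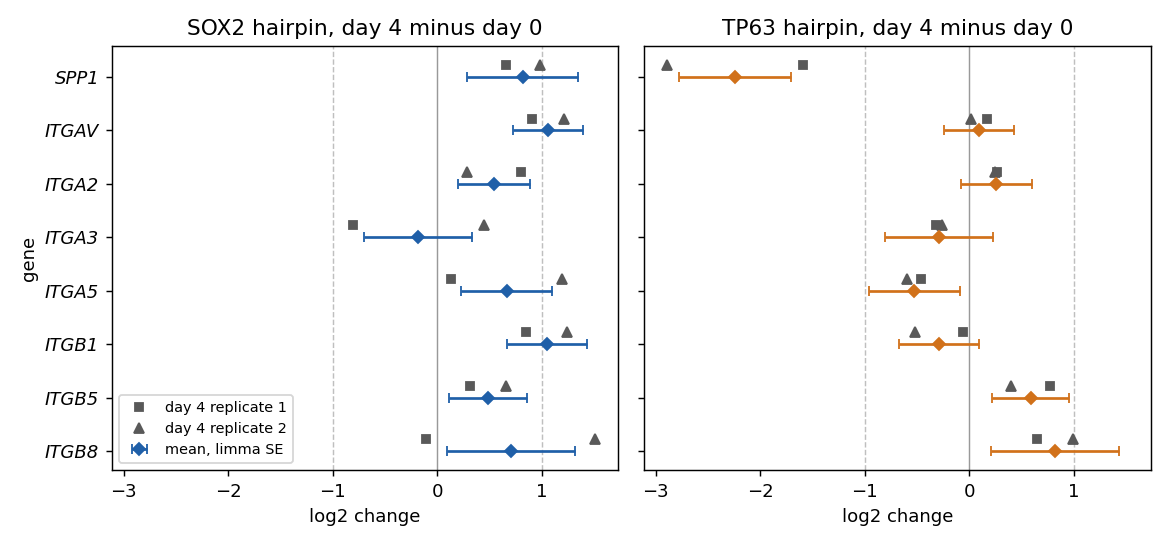
Log2 change from day 0 to day 4 on the horizontal axis for the 8 tested genes, for the SOX2 hairpin at left and the TP63 hairpin at right, with diamonds for the mean, bars for the limma standard error, and gray squares and triangles for the 2 day 4 libraries. Dashed lines mark 2-fold, and SPP1 in the shTP63 line is the 1 gene with both libraries past it.

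SPP1, ITGA5 and ITGB1 were above day 0 in both induced shSOX2 libraries and below day 0 in both induced shTP63 libraries, a pattern of 6.16% of all tested genes. The difference of the responses, TP63 minus SOX2, was -3.06 ± 0.75 for SPP1, -1.34 ± 0.54 for ITGB1 and -1.19 ± 0.61 for ITGA5 on the log2 scale (limma adjusted p = 0.995 for each). For ITGA5, induced shSOX2 replicate 1 was 0.13 above day 0, and the difference of the responses was -0.66 without replicate 2 of that line and -1.73 without replicate 1. No member passed this test, nor did any of the 10536 genes (0%), and at an unadjusted p under 0.05 stood 2 members, SPP1 and ITGB1, with 4.55% of all tested genes. ITGAV, ITGA2 and ITGB5 were above their own day 0 library in all 4 induced libraries, as were 19.4% of all tested genes.

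Between the induced lines, with 2 libraries on each side, SPP1 was lower in the shTP63 cells than in the shSOX2 cells, with a log2 difference of -3.41 ± 0.43 (limma adjusted p = 0.0326). That is 10.6-fold on the RPKM + 1 scale and the lowest difference of all 10536 tested genes, with SAA1 next at -2.90. It was the 1 call among the 8 members, on a side where limma called 0.513% of all tested genes, of 0.759% in both directions. The call did not survive with no filter on low values (limma adjusted p = 0.286). Leaving out an induced library leaves 1 in its group, with the spread taken from the other pair, so p-values and calls of those fits are not given. The difference stayed between -4.06 and -2.76 over 11 alternatives.

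The libraries of the induced lines did not overlap for 4 further members, ITGA2, ITGA5, ITGB1 and ITGB5, which were lower in the shTP63 line. With SPP1 these made 5 of 8, beside 26.6% of all tested genes on that side. Their log2 differences were -0.51 ± 0.28, -1.04 ± 0.35, -0.55 ± 0.31 and -0.48 ± 0.30, and none passed (limma adjusted p = 0.302, 0.157, 0.319 and 0.361). Before induction, shTP63 minus shSOX2 was already -0.58 for ITGB5, a wider gap than after induction, and -0.22 for ITGA2, while it was 0.15 for ITGA5 and 0.785 for ITGB1. The difference of ITGA5 was -0.51 without induced shSOX2 replicate 2 and -1.57 without replicate 1. The remaining 3 overlapped, with ITGB8 at 0.58 ± 0.50, ITGA3 at 0.05 ± 0.42 and ITGAV at -0.15 ± 0.27. The median of the 8 was -0.50, beside 0.05 for all tested genes.

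**Figure D3:**
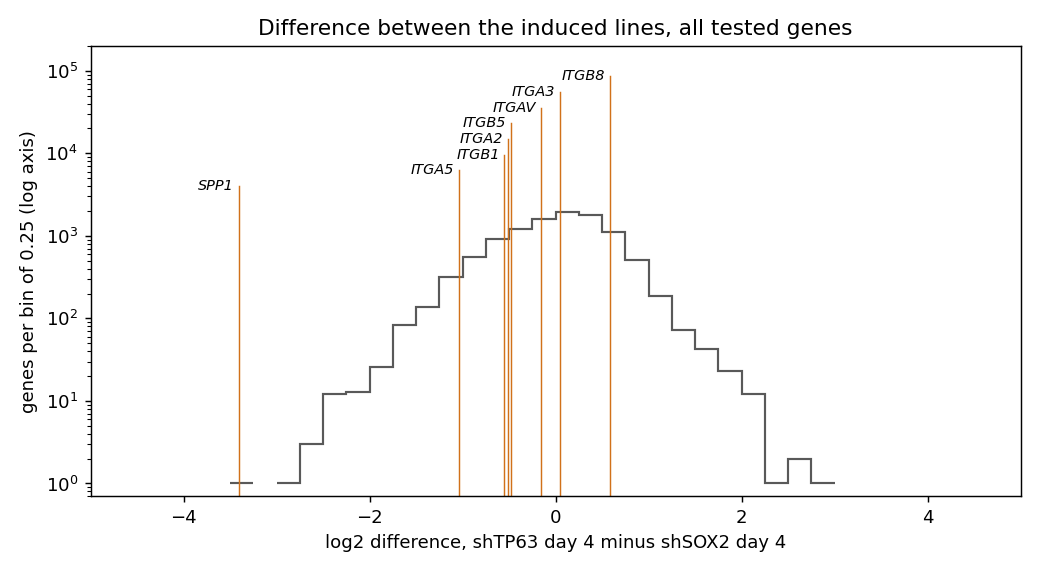
Number of tested genes per bin of 0.25 (vertical, log axis) by the log2 difference of shTP63 day 4 minus shSOX2 day 4 (horizontal), with vertical lines at the 8 tested members, whose heights only separate the names. SPP1 stands alone at -3.41 and the integrin genes lie between -1.04 and 0.58.

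By Pearson correlation over the 6 libraries, the genes most like SPP1 among the 524 with an SD of at least 0.5 times its own were RP11-192N10.2 (r = 0.995), GLB1L2 (0.982), TROAP (0.970), RECQL4 (0.969) and TNFRSF21 (0.965). GLB1L2, a beta-galactosidase-like gene, was at 3.91, 3.84 and 4.02 in the shSOX2 line and at 3.14, 2.03 and 1.27 in the shTP63 line. TNFRSF21, which encodes a death receptor, was at 3.83, 3.95 and 4.59 and at 4.13, 2.86 and 2.01. In both, as in SPP1, the induced shTP63 libraries were the lowest and replicate 2 was below replicate 1. The points are 6 libraries in 4 groups that share the 2 lines, so the likeness is a description.

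The relatives of the 10 genes were taken from lists drawn up with earlier results known. Of 17 other integrin subunit genes 2 were tested, ITGA6 and ITGB4, the chains of the hemidesmosome integrin. ITGA6 was at 3.99, 3.89 and 3.93 in the shSOX2 line and at 4.37, 2.90 and 3.55 in the shTP63 line. Both induced shTP63 libraries were its lowest, and its log2 change of -1.15 ± 0.38 did not pass (limma adjusted p = 0.246). ITGB4 was at 6.35, 5.51 and 7.59 and at 5.90, 5.11 and 5.52, so its induced shSOX2 libraries lay 2.07 apart, and the lower of them was below induced shTP63 replicate 2. Its change in the shTP63 line was -0.59 ± 0.74 (limma adjusted p = 0.762). The alpha 4 and alpha 9 chains, which also bind osteopontin, were at or near 0, with ITGA4 at 0 in all 6 libraries and ITGA9 at no more than 0.01. The other bone matrix genes of the osteopontin family, IBSP, DMP1, DSPP and MEPE, did not pass the filter, and the highest value of any was 0.20, for IBSP.

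Among 31 genes of integrin ligands in the matrix, 21 were tested and 0 were called after either induction. By size, 4 of the 21 were at least 2-fold higher in both induced shSOX2 libraries (COL5A1, COL6A1, COL3A1 and CYR61), 19% beside 3.46% of all tested genes in either direction. In the shTP63 line 3 were higher (COL6A1, COL3A1 and COL5A1) and 0 lower, 14.3% beside 5.87%. The median log2 changes of the 21 were 0.52 and 0.53, beside -0.05 and 0.00 for all tested genes.

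COL3A1, a fibrillar collagen gene, was at 3.24, 7.29 and 4.78 in the shSOX2 line and at 2.13, 5.79 and 6.47 in the shTP63 line. All 4 induced libraries were above both uninduced ones, with log2 changes of 2.79 ± 0.88 and 4.00 ± 0.88 (limma adjusted p = 0.417 and 0.137). COL6A1, a gene of the beaded-filament collagen VI, was at 3.12, 4.19 and 4.21 and at 2.35, 4.15 and 3.81, likewise with no overlap. Of all tested genes, 24.2% had both induced shSOX2 libraries above both uninduced ones, and 26.5% had both induced shTP63 libraries above them. The share with both patterns is not given here. COL3A1 and COL6A1 were named for being past 2-fold in each line, so part of this separation follows from that rule. Of the 5 fibroblast markers COL1A1 and THY1 passed the filter, while PDGFRB, DCN and LUM were at no more than 0.03. The summed RPKM of the 5 was 2.59 and 3.27 in the uninduced libraries and 6.20 to 7.81 in the induced ones, and its part in the collagen values was not tested. COL1A1, itself a collagen of the ligand list, had log2 changes of 0.46 and 1.02 in the shSOX2 and shTP63 lines. THY1 had changes of 1.52 and -0.01, the latter from replicates at 0.38 and -0.41, so in the shTP63 line COL1A1 made the larger part of the difference in the sum.

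COL4A1, a basement membrane collagen gene, was the 1 ligand of 21 (4.76%) with every library of one induced line at least 2-fold from every library of the other, beside 2.47% of all tested genes. It was at 4.14, 4.31 and 4.72 in the shSOX2 line and at 3.40, 3.09 and 2.76 in the shTP63 line, and its difference of -1.59 ± 0.30 did not pass (limma adjusted p = 0.0679). The uninduced lines already differed for it. VTN, the vitronectin gene, was listed at 0 in every library, and FN1, the fibronectin gene, lay below the filter at 0.18 to 1.35.

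Of 41 genes for integrin-binding and focal adhesion proteins, 36 were tested, and the median log2 changes were -0.02 in both lines. None was called in any of the 4 contrasts, and 1 of the 36 in each line was past 2-fold in both induced libraries (2.78%, beside 3.46% in the shSOX2 line and 5.87% in the shTP63 line). These were CD47, the integrin-associated protein gene, higher in the shSOX2 line at 1.01, 2.26 and 2.42, and TNS4, a tensin gene, lower in the shTP63 line at 4.05, 2.66 and 2.90. In the shSOX2 line TNS4 was at 2.90, 2.52 and 2.90, so its high value is that of the uninduced shTP63 library alone. Between the induced lines PARVA, the parvin gene that binds integrin-linked kinase, and the tensin gene TNS3 were higher in the shTP63 line by 1.59 ± 0.29 and 1.27 ± 0.26, which did not pass (limma adjusted p = 0.0626 and 0.0791). The uninduced shTP63 library was already above the uninduced shSOX2 library by 0.88 for PARVA and 0.56 for TNS3. TLN1, the talin gene, which lies outside the naming rule, had changes of 0.01 and 0.26.

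A list of 12 genes held the receptor CD44, proteases that cut osteopontin or act near it, and F3, the tissue factor gene, which encodes no protease. Of these 12, 5 were tested, F3 among them, and none was called in any contrast. MMP14, a membrane-bound metalloproteinase gene, was at 3.67, 5.16 and 5.33 in the shSOX2 line and at 3.60, 4.98 and 3.45 in the shTP63 line. The cathepsin B gene CTSB was at 4.01, 5.43 and 5.04 and at 4.28, 3.66 and 4.98. Both were past 2-fold in the shSOX2 line, 2 of the 5 (40%) beside 3.46% of all tested genes, with log2 changes of 1.58 ± 0.59 and 1.22 ± 0.55 that did not pass (limma adjusted p = 0.442 and 0.496), and in the shTP63 line 0 of the 5 were, beside 5.87%, with the replicates of both on opposite sides of day 0. CD44, which lies outside the naming rule and was picked after its values were seen, was at 6.21, 5.56 and 5.99 and at 5.79, 4.92 and 5.08. All 4 induced libraries were below the day 0 library of their own line. Of all tested genes, 40.2% were lower in both induced shSOX2 libraries and 38.5% in both induced shTP63 libraries, and the share lower in all 4 is not given here. Induced shSOX2 replicate 2 was above the uninduced shTP63 library. MMP3, MMP7 and MMP9, proteases known to cleave osteopontin, were each at no more than 0.03. MMP2, a further metalloproteinase gene of the list, passed the filter and lay at 1.13 to 2.56.

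**Figure D4:**
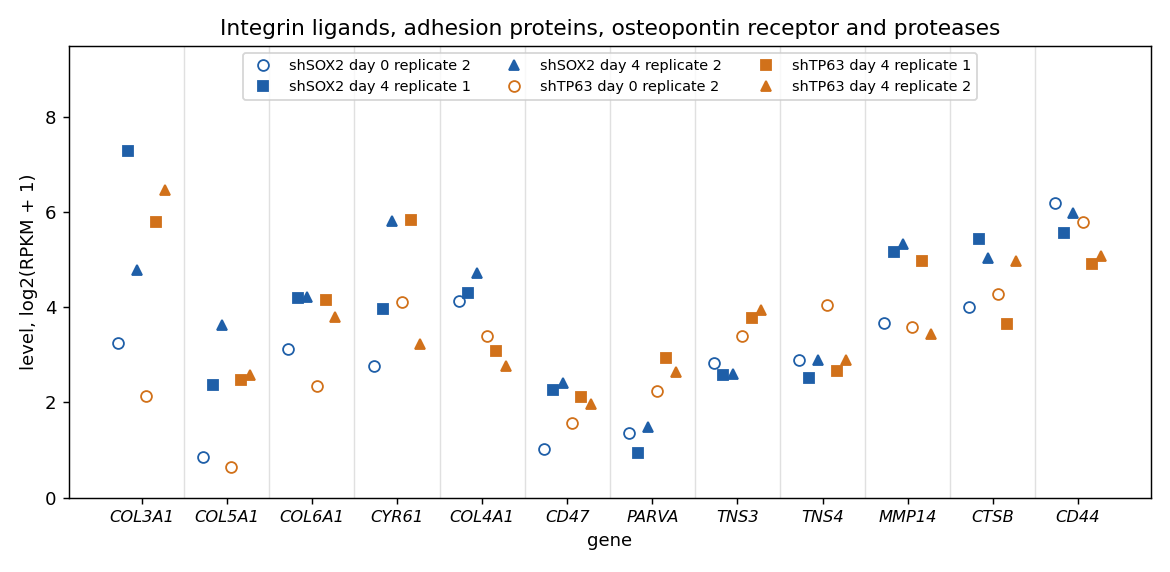
Level as log2(RPKM + 1) on the vertical axis of 12 genes for integrin ligands, adhesion proteins, the receptor CD44 and proteases, 1 point per library, with open circles for day 0, squares for day 4 replicate 1, triangles for day 4 replicate 2, blue for shSOX2 and orange for shTP63. COL3A1, COL5A1 and COL6A1 are higher in all 4 induced libraries than in both uninduced ones, and TNS4 is high in the uninduced shTP63 library. The collagen genes named here were past 2-fold in each line, so part of their separation follows from that rule.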

How the data were processed

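Per the labels' protocols, bead-selected poly(A) RNA was fragmented, copied into cDNA from random primers and sequenced on an Illumina HiSeq instrument. The submitters' processing notes name hg19 as the build; for the aligner, counter and annotation the sources used here give nothing. The authors deposited values named RPKM. The values fit log2(RPKM + 1), with base 2 assumed, and share 1 highest value, so these deposited log2 values were read as quantile-normalized and tested directly. Promoter coordinates are GRCh38.p14, from RefSeq, and were not joined to the hg19 values.

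Genes whose linear RPKM averaged 1 or more were fitted with limma 3.58.1 in R 4.3.3, as 4 group means over 6 libraries with a variance trend, 2 residual and about 5.53 prior degrees of freedom. A lone day 0 library was thus assumed to vary like the day 4 pairs. P-values are two-sided and Benjamini-Hochberg adjusted over all 10536 genes, with a call under 0.05. The fit was tested on simulated data, but the settings and outcome are not given here, so nothing is drawn from that test. Alternatives were pseudocounts of 5 and 0.1, other filters, scaling and priors, other controls, the replicate number as a block, and leaving out each day 4 library. The members, lists and alternatives were chosen with earlier results of these data known. Named relatives are the called or 2-fold genes of each list, at most 6 per list and contrast, and the 5 genes most correlated with SPP1 among those with an SD of at least 0.5 times its own. Other genes given with values, such as ITGA6, ITGB4, TLN1, CD44, THY1 and those below the filter, fall outside this rule and were chosen after their values were seen. The same rule for ITGB6 gave none, as it was 0 throughout. 1 gene of the ligand list is not reported here and was left out of that list's counts.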

Additional observations from a re-analysis of the deposited data

Results flagged for a closer look

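For 3 members every induced library moved one way in the shSOX2 line and the opposite way in the shTP63 line. The difference of the responses, TP63 minus SOX2 on the log2 scale, was -3.06 for SPP1, -1.34 for ITGB1 and -1.19 for ITGA5. None passed the limma test of that difference (adjusted p = 0.995 for each). Each rests on 1 uninduced library per line. That of ITGA5 was -0.66 without induced shSOX2 replicate 2 and -1.73 without replicate 1. For ITGB1 the uninduced libraries differed by 0.785, and with the uninduced shSOX2 library as the control of both lines its induced libraries were higher in both.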

How the results depend on the processing

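The number of genes called by limma moved widely. After SOX2 hairpin induction it was 0, and it was 1 with a pseudocount of 5, 2 with both day 0 libraries as the control, 11 with the line alone, 4 with the other day 0 library and 0 to 11 when day 4 libraries were left out. After TP63 hairpin induction it was 2, and it was 5 with a pseudocount of 0.1, 154 with no filter, 1 at a mean RPKM of at least 5, 291 with both day 0 libraries, 0 with the line alone, 49 with the other day 0 library and 0 to 80 when day 4 libraries were left out. Between the induced lines it was 80, and it was 30 and 46 with pseudocounts of 5 and 0.1, 0 with no filter, 44 at a mean RPKM of at least 5 and 0 to 324 when libraries were left out. For the difference of responses it was 0, and 0 to 5 when libraries were left out. The cause was not tested. Counts without a day 4 library come from fits with 1 library in that group, whose spread is that of the other day 4 pair. The count against the other day 0 library, and for members the counts without a library, were chosen after the data were seen.

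The gaps between day 4 replicates, replicate 2 minus replicate 1, correlated at -0.0738 between the lines across genes. This looks only for a gap shared by both lines, so it cannot show whether libraries of the same number were paired within a line. With the replicate number as a block, 0 genes were called after TP63 hairpin induction and 18 between the induced lines, where SPP1 passed (limma adjusted p = 0.0422). ITGA3 changed sign under the block, to 0.15 with the SOX2 hairpin and 0.0395 with the TP63 hairpin.

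Members at least 2-fold apart numbered 0 in the shSOX2 line, 1 with a pseudocount of 0.1 (ITGAV), 3 at 1.5-fold and 0 to 4 when a library was left out. In the shTP63 line they numbered 1, and 2 at 1.5-fold or with the other day 0 library (SPP1 and ITGB8). When libraries were left out, signs turned for ITGA3 (-0.81 to 0.45) and ITGB8 (-0.10 to 1.51) with the SOX2 hairpin, for ITGA3 (-0.74 to 0.52), ITGB5 (-0.0876 to 0.285) and ITGB8 (-0.69 to 0.92) in the difference, and for ITGA3 (-0.58 to 0.68) and ITGB8 (-0.22 to 1.39) between the induced lines. ITGA3 was also at -0.00203 there with median-ratio scaling. ITGB1 after TP63 hairpin induction was 0.10 with both day 0 libraries and 0.50 with the other one. SPP1 kept its sign in all alternatives of each contrast.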

Other observations

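Within each library, the alpha V partner genes other than ITGB1 were dominated by ITGB5. ITGB8 made up 15.8% of the summed RPKM of ITGB3, ITGB5, ITGB6 and ITGB8 in the uninduced shSOX2 library, 12.1% and 27.6% in the induced replicates 1 and 2, and 29.6%, 28.4% and 40.2% in the shTP63 line in the same order. The induced libraries lay on both sides of day 0 in each line. The ratio of SPP1 to ITGAV on the linear RPKM scale was 30.0, 22.6 and 22.6 in the shSOX2 line and 12.1, 3.44 and 1.51 in the shTP63 line.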
